A study of Mus musculus with 4 samples.

Results

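To examine Notch signalling genes in cultured mouse astrocytes, the expression of 10 genes was taken from RNA-seq of 4 libraries. The 10 genes were the receptors Notch1, Notch2 and Notch3, the ligands Dll1, Dll3 and Jag1, and the transcription factors Hes1, Hes5, Hey1 and Hey2. They were matched by symbol among the 25393 genes of the table, and all 10 were found and passed the minimum mean of 1 normalized count used for testing. The comparison was of 2 libraries labelled wild-type (WT) with 2 labelled Tet1 KO (tet1-/-, a constitutive knockout of Tet1, which encodes an enzyme that oxidizes 5-methylcytosine to 5-hydroxymethylcytosine). All came from untreated C57BL/6 pups at postnatal day 1, and a constitutive knockout is not limited to astrocytes. Cells of cortex and hippocampus from 2 mice were pooled per isolation, grown for about 7 days, purified by shaking at 260 rpm and collected 24 h later.

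Notch receptors are single-pass membrane proteins that are activated by Delta and Jagged ligands on a neighbouring cell. Binding leads to cleavage by an ADAM protease and then by γ-secretase, and the freed intracellular domain enters the nucleus, where it binds the DNA-binding protein RBPJ and turns on Hes and Hey genes. Hes and Hey proteins are repressors that hold down proneural genes, and in the brain the pathway is known for keeping neural progenitors undifferentiated and for favouring the astrocyte fate.

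Each value below is a normalized count, the number of reads on a gene divided by 1 size factor per library, unless FPKM is named. FPKM (fragments per kilobase of gene length, scaled to the reads on genes of the library) was used wherever the levels of genes were compared with each other. Log2 ratios of 2 genes were taken from normalized counts without a length correction, so only their difference between labels is read and not their sign. Libraries held 18749610 to 22673555 reads on genes, and 3 reads, taken as the detection floor, equalled 2.70 to 3.21 normalized counts. The normalized counts of Tet1 were 266 and 121 for WT and 173 and 463 for the KO label, a log2 difference of 0.66 (SE 0.65, limma adjusted p = 0.691), so the counts over the whole gene did not separate the groups. The deleted part of Tet1 is not given in the sources used here, and the second group is therefore called the libraries labelled KO throughout. Xist, made from an inactive X chromosome, was at 8.54 and 0.92 normalized counts in WT, against 2896 and 13367 under the KO label, so the label and the sex of the pups cannot be told apart. None of the 10 genes lies on X or Y. The astrocyte markers Gfap, Aldh1l1 and Slc1a3 were detected in every library, at 117 to 1871, 27.3 to 63.7 and 106 to 243 FPKM. Replicates of 1 label were further apart than sampling noise would put them (median chi-square per gene 6.48 between WT and 19.7 between labelled KO libraries, against 0.455). The labels do not say whether the 2 libraries of a label came from separate cultures, and p-values measure only the spread between these libraries.

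In Notch genes, as in genes generally, the labelled KO libraries were further apart from each other than the WT libraries were. A gap of over 2-fold between them was seen in 4 of the 10 genes (Notch2, Jag1, Hes1 and Hey1), while the WT libraries had such a gap in 1 (Notch3). Among all 12868 genes with a mean of at least 50 normalized counts, 28.6% differed that much between the labelled KO libraries and 10.7% between the WT libraries. Of the 10 Notch genes, 7 reached that mean, and the 4 named above are among them. The values of both labelled KO libraries are therefore given for each gene.

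**Figure D1:**
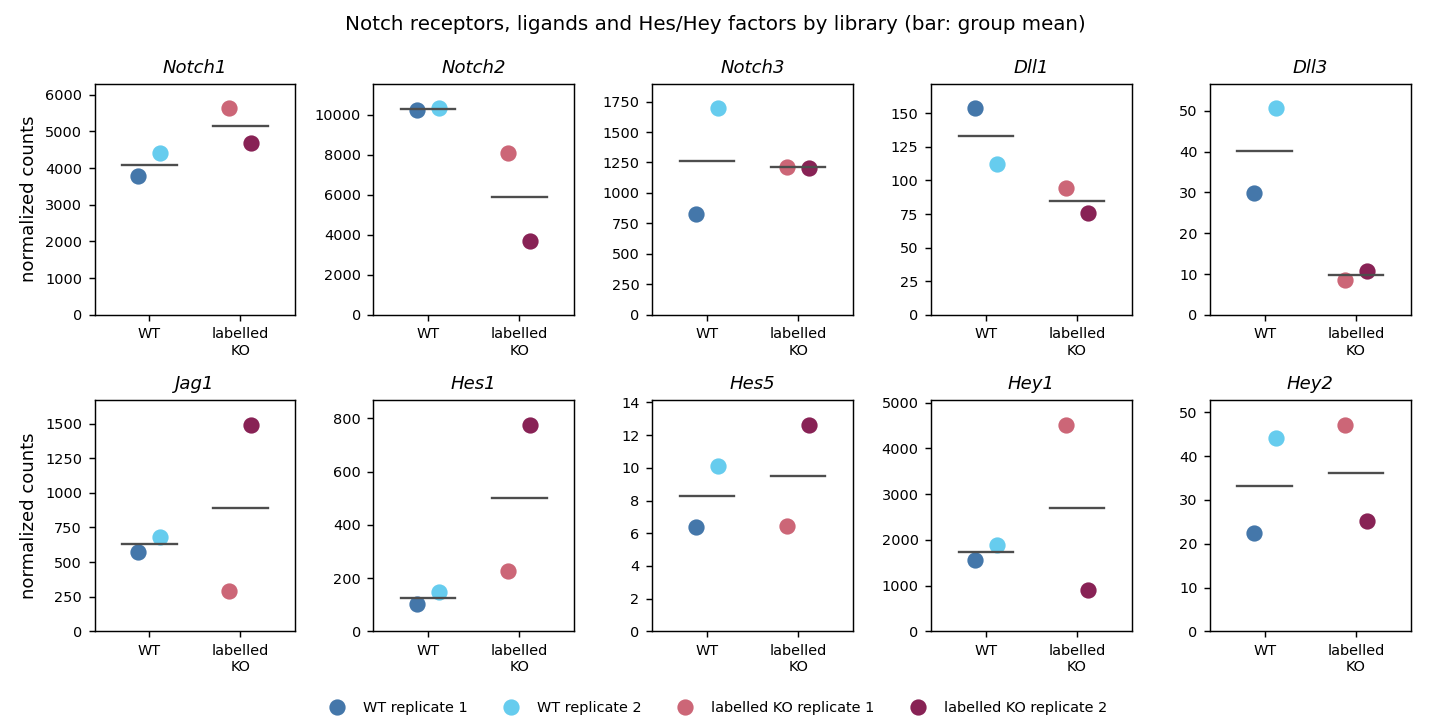
Normalized counts (vertical axis, linear, from 0) of each of the 10 genes in the 2 WT libraries and the 2 libraries labelled KO, with 1 point per library and a bar at the group mean. Labelled KO replicates 1 and 2 lie far apart for Notch2, Jag1, Hes1 and Hey1, and both lie below both WT libraries for Dll3 (8.56 and 10.8 against 29.9 and 50.6).

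By level per length, the ranges of 6 of the 10 genes lay above those of the other 4. Notch2 had the highest mean over the 4 libraries (36.1 FPKM, range 17.0 to 47.5), above 94.2% of listed genes. It was followed by Hey1 (31.9, range 13.7 to 62.4), Notch1 (15.6, range 13.2 to 17.8), Hes1 (7.47, range 2.54 to 18.8), Notch3 (7.37, range 5.13 to 10.1) and Jag1 (6.37, range 2.28 to 12.7). Neighbours among these 6 did not differ beyond their ranges. The other 4 lay lower, with Dll1 at 1.25 FPKM (range 0.889 to 1.82), Dll3 at 0.425 (range 0.136 to 0.851), Hey2 at 0.360 (range 0.244 to 0.463) and Hes5 at 0.315 (range 0.213 to 0.458). Jag1 and Dll1 did not overlap, nor did Dll1 and Dll3, whereas the ranges of Dll3, Hey2 and Hes5 did. Hes5, a direct Notch target that is strongly expressed in neural progenitors, was thus the lowest of the 10 genes and had a mean above 36.2% of listed genes.

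No gene of the 10 passed an adjusted p of 0.05 in limma, where 0% of the 22094 genes tested did. At an unadjusted p under 0.05, 1 of 10 was higher in the libraries labelled KO (Hes1), against 4.54% of all genes, and 1 of 10 was lower (Dll3), against 9.18%. Both labelled KO libraries lay above both WT libraries for 2 genes (Notch1 and Hes1), where 22.5% of all genes did, and below both for 3 (Notch2, Dll1 and Dll3), where 25.4% did. The median log2 difference of the 10 genes was 0.11, and that of all genes tested was -0.07. In edgeR, 2 of 10 had an unadjusted p under 0.05 (again Dll3 and Hes1; 12.4% of all genes) and 0 passed the adjusted threshold. In DESeq2, 0 of 10 passed an adjusted p of 0.05, which 6.26% of 17382 genes did. Each of these counts lay within 1 gene of what the share over all genes would give for 10 genes.

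**Figure D2:**
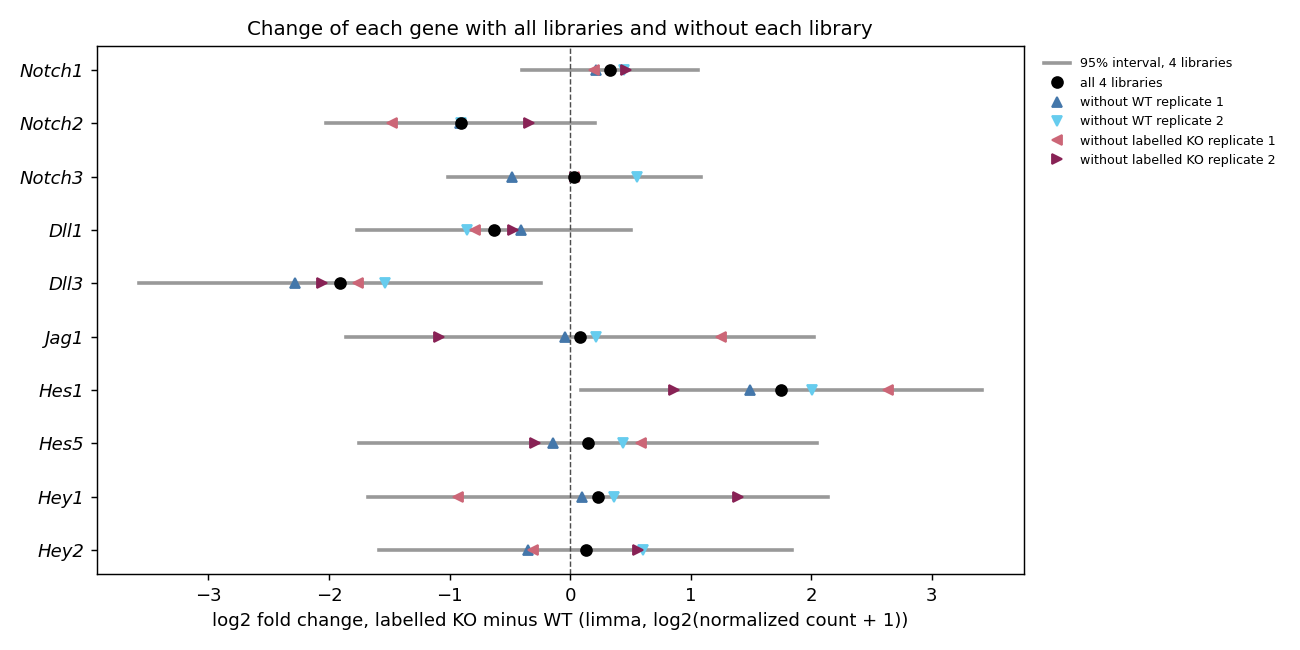
Log2 fold change, labelled KO minus WT, of each of the 10 genes (horizontal axis, limma on log2(normalized count + 1)) with all 4 libraries (black, grey bar: 95% interval) and with each library left out (coloured). The intervals of Dll3 (-3.58 to -0.24) and Hes1 (0.09 to 3.41) lie on 1 side of 0, and leaving out either labelled KO library moves Jag1 and Hey1 to opposite sides of 0.

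Among the receptors, Notch2 had lower and Notch1 slightly higher counts in both libraries labelled KO, and neither difference passed the test. Positions are on mm10. Notch2 (ENSMUSG00000027878, chr3:98013527-98150361, + strand) had normalized counts of 10246 and 10315 in WT, 8100 in labelled KO replicate 1 and 3703 in labelled KO replicate 2. The WT libraries were nearly equal, and the group difference came mostly from replicate 2. This amounted to a log2 difference of -0.91 (SE 0.44, 95% interval -2.02 to 0.21, limma adjusted p = 0.440). Without labelled KO replicate 1 it was -1.47, with an unadjusted p under 0.05 (limma adjusted p = 0.157), and without replicate 2 it was -0.34. The adjusted p-values of all alternatives ran from 0.157 to 0.967.

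Notch1 (ENSMUSG00000026923, chr2:26457903-26516663, - strand) was at 3771 and 4412 normalized counts in WT, with 5625 and 4675 in the labelled KO pair. These did not overlap, but the gap between the nearest libraries was small beside the spread within each group. On the log2 scale the labels differed by 0.33 (SE 0.29, 95% interval -0.40 to 1.06, limma adjusted p = 0.646), and by 0.20 without labelled KO replicate 1. Notch1 overlaps 3 other annotated genes, 2 of them on the opposite strand. The kit's strand setting is not given in the sources used here, so reads from such neighbours could be counted with it.

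Notch3 (ENSMUSG00000038146, chr17:32120820-32166880, - strand), the receptor best known from mural cells of blood vessels, had normalized counts of 825 and 1694 in WT, compared with 1216 and 1206 in labelled KO libraries. Both labelled KO values lay between the 2 WT values. The log2 difference was 0.03 (SE 0.42, 95% interval -1.01 to 1.08, limma adjusted p = 0.982), and its sign turned without WT replicate 1 (-0.48), with libraries scaled to equal sums (-0.02) or by quantile normalization (-0.03), in edgeR (-0.09) and in DESeq2 (-0.06). One gene on the opposite strand overlaps Notch3. Notch4, which acts mainly in endothelial cells, was the lowest receptor, at 0.198 to 0.388 FPKM.

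Summed over Notch1 to Notch4, receptor level per length was 66.1 and 71.2 FPKM in WT, 58.9 in labelled KO replicate 1 and 41.1 in labelled KO replicate 2. Notch2 made up 71.9% and 64.4% of that sum in WT, 57.6% in labelled KO replicate 1 and 41.4% in replicate 2. Notch1 made up 20.05% and 20.9% in WT, against 30.3% and 39.6% under the KO label. In labelled KO replicate 2 the 2 receptors were thus nearly level, while in WT Notch2 stood 3.59 and 3.09 times above Notch1. The log2 ratio of the normalized counts of Notch1 to Notch2, which does not depend on the scaling between libraries, was -1.44 and -1.22 in WT, against -0.53 and 0.34 under the KO label. The means differed by 1.24 (exact two-sided permutation test, p = 0.333, the smallest p that 2 against 2 libraries allow), with a lowest value of 0.81 when 1 library was left out. These sums are per bulk library, in which fewer cells of a type and less RNA per cell cannot be told apart.

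Microglial markers had a lower summed level in both libraries labelled KO, and 5 of 9 astrocyte markers were also lower in both, as Notch2 was. The summed FPKM of 12 microglial genes was 44.2 and 86.8 in WT, against 6.57 and 3.37 under the KO label. Of the 12, 11 had an unadjusted limma p under 0.05 in the lower direction, against 9.18% of all genes. P2ry12 was at 0 in 1 library. The sum of the 9 astrocyte markers was 1490 and 1434 FPKM in WT, 2570 in labelled KO replicate 1 and 380 in replicate 2. Its largest term was Gfap (687, 765, 1871 and 117 FPKM), so the sum does not stand for the list. Both labelled KO libraries lay below both WT libraries for 5 of the 9 (Aldh1l1, Slc1a3, Slc1a2, Aqp4 and Sox9), against 25.4% of all genes. They lay above for 1 (Gja1), against 22.5%. The median log2 difference of the list was -0.68. The part of these markers in the Notch2 difference was not tested.

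**Figure D3:**
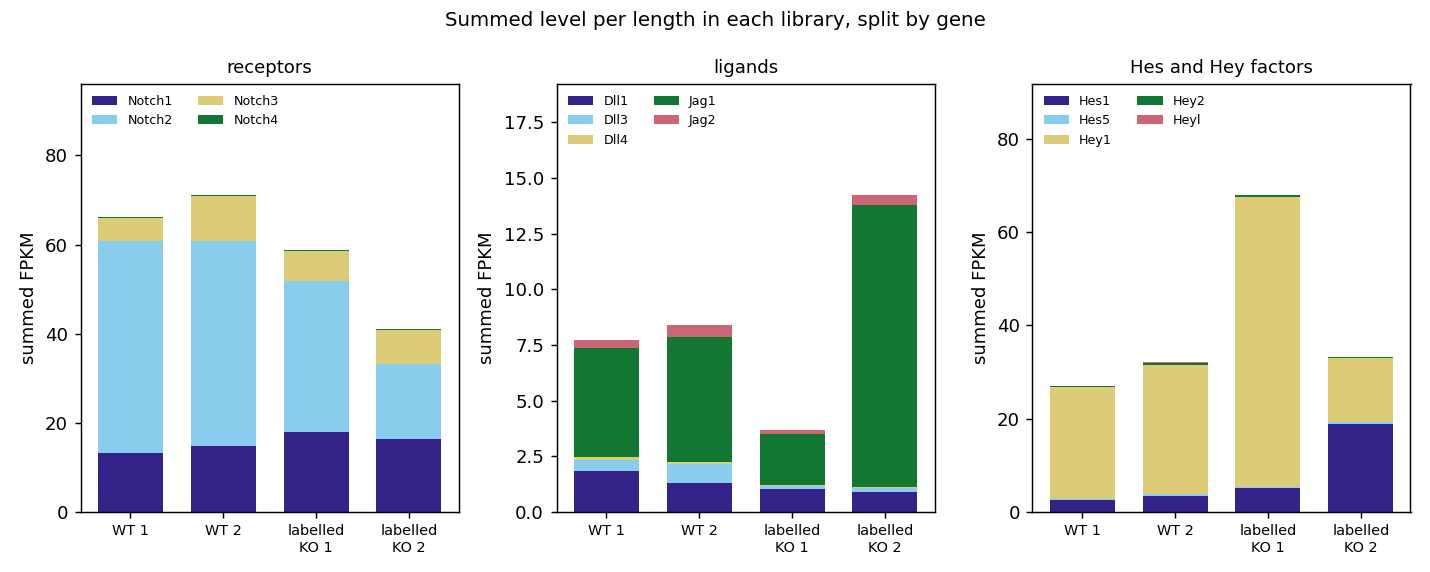
Summed FPKM (vertical axis, from 0) in each of the 4 libraries, split by gene. The panels hold the receptors, the ligands Dll1, Dll3, Dll4, Jag1 and Jag2, and the Hes and Hey factors. The ligand sum leaves out Dner, Dlk1 and Dlk2. Notch2 takes 71.9% of the receptor sum in WT replicate 1 and 41.4% in labelled KO replicate 2, and Hes1 takes 56.6% of the Hes and Hey sum in labelled KO replicate 2 against 7.35% to 10.8% in the other libraries, in a sum of Hes1, Hes5, Hey1, Hey2 and Heyl that leaves out Hes6.

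Among the ligands, Dll3 was the gene with the clearest separation of the 2 labels, and Jag1, the most abundant of the 3 by FPKM, lay on opposite sides of WT in the 2 libraries labelled KO. Dll3 (ENSMUSG00000003436, chr7:28293553-28302238, - strand) encodes a divergent Delta protein that stays mostly inside the cell and does not activate Notch on neighbours. It was at 29.9 and 50.6 normalized counts in WT, compared with 8.56 and 10.8 in labelled KO libraries. The groups did not overlap, and the WT mean was 4.15 times the mean of the libraries labelled KO. This amounted to a log2 difference of -1.91 (SE 0.66, 95% interval -3.58 to -0.24, limma adjusted p = 0.327), with adjusted p-values from 0.209 in DESeq2 to 0.967 without WT replicate 1. Its direction was the same whichever library was left out (-2.28 to -1.54), but the unadjusted p stayed under 0.05 only without labelled KO replicate 2 (-2.06). It was above 0.05 without WT replicate 1 (-2.28), WT replicate 2 (-1.54) or labelled KO replicate 1 (-1.76), and also with quantile normalization (-1.36). The values rest on 28, 55, 8 and 12 reads, and the exact Poisson 95% intervals of the 2 labelled KO values, which cover counting error only, were 3.70 to 16.9 and 5.59 to 18.9.

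Dll1 (ENSMUSG00000014773, chr17:15367354-15376872, - strand), a ligand that activates Notch on adjacent cells, had normalized counts of 154 and 112 in WT, against 94.2 and 75.7 under the KO label. All values of the second group were below those of the first, by little. On the log2 scale the labels differed by -0.63 (SE 0.45, 95% interval -1.77 to 0.51, limma adjusted p = 0.583), by -0.41 without WT replicate 1 and by -0.20 with quantile normalization. A lincRNA gene on the opposite strand overlaps Dll1. Dll4, known from endothelial cells, was the lowest ligand, at 0.046 to 0.097 FPKM (4 to 8 reads).

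Jag1 (ENSMUSG00000027276, chr2:137081456-137116644, - strand), a ligand that astrocytes and their progenitors present to neighbouring cells, was at 572 and 683 normalized counts in WT, 294 in labelled KO replicate 1 and 1490 in labelled KO replicate 2. The WT libraries lay between the labelled KO libraries, which were 5.06-fold apart. The log2 difference of 0.08 (SE 0.77, 95% interval -1.85 to 2.02, limma adjusted p = 0.973) averages these opposite values. Without labelled KO replicate 1 it was 1.25 (limma adjusted p = 0.174), without labelled KO replicate 2 it was -1.08 (limma adjusted p = 0.324), and without WT replicate 1 it was -0.04. The first 2 of these had an unadjusted p under 0.05 in opposite directions, and adjusted p-values of all alternatives ran from 0.174 to 0.999.

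Jag1 made up 63.6% and 67.1% of the summed FPKM of Dll1, Dll3, Dll4, Jag1 and Jag2 in WT, 61.8% in labelled KO replicate 1 and 88.8% in replicate 2. The sum itself was 7.71 and 8.38 FPKM in WT, 3.69 in labelled KO replicate 1 and 14.3 in replicate 2, and Jag1 was its largest term throughout. It leaves out Dner, Dlk1 and Dlk2, so it is not a total of all listed ligands. Dner alone had 11.6 and 6.07 FPKM in WT, 66.5 in labelled KO replicate 1 and 10.5 in replicate 2. In the same order, Dlk1 had 1.40, 5.27, 9.39 and 11.3 FPKM, and Dlk2 had 0.606, 3.51, 5.58 and 5.45. The log2 ratio of Dll1 to Jag1 was -1.89 and -2.60 in WT, against -1.63 and -4.28 under the KO label. Means differed by -0.71 (exact two-sided permutation test, p = 1), and by 0.61 without labelled KO replicate 2.

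Among the targets, Hes1 had higher counts under the KO label, and Hey1 lay on both sides of WT. Hes1 (ENSMUSG00000022528, chr16:30064384-30067796, + strand), a repressor that responds to Notch and also to other signals in dividing progenitors, had normalized counts of 103 and 148 in WT, 226 in labelled KO replicate 1 and 775 in labelled KO replicate 2. Both labelled KO libraries were above both WT libraries, and replicate 2 was 3.43 times replicate 1. The log2 difference was 1.75 (SE 0.66, 95% interval 0.09 to 3.41, limma adjusted p = 0.355). In DESeq2 it was 1.99 with an adjusted p of 0.0678, the lowest of the adjusted p-values for Hes1 over the 15 alternatives, which reached 0.967. It was 2.64 without labelled KO replicate 1 and 0.86 without replicate 2, the direction being the same in both. The unadjusted p rose above 0.05 without WT replicate 1 (1.49), WT replicate 2 (2.01) or labelled KO replicate 2, and also with a pseudocount of 0.1, a minimum mean of 10, equal sums or no variance trend. On the linear scale this put the mean of the libraries labelled KO at 3.98 times that of WT, 500 ± 388 against 126 ± 31.5 normalized counts (SD, n = 2).

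Hey1 (ENSMUSG00000040289, chr3:8663359-8667256, - strand), a related repressor, was at 1566 and 1883 normalized counts in WT, 4512 in labelled KO replicate 1 and 903 in labelled KO replicate 2. It was highest in 1 labelled KO library and lowest in the other, with a 5.0-fold gap. This amounted to a log2 difference of 0.23 (SE 0.76, 95% interval -1.67 to 2.14, limma adjusted p = 0.917). Leaving out labelled KO replicate 1 gave -0.93 (limma adjusted p = 0.199) and leaving out replicate 2 gave 1.39 (limma adjusted p = 0.272), both with an unadjusted p under 0.05. Adjusted p-values of all alternatives ran from 0.199 to 0.996.

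By FPKM, Hes1 stood above Hey1 in labelled KO replicate 2 (18.8 against 13.7) and below it in the other 3 libraries. Hey1 made up 88.8% and 86.0% of the summed FPKM of Hes1, Hes5, Hey1, Hey2 and Heyl in WT and 91.6% in labelled KO replicate 1, but 41.1% in replicate 2. Hes1 made up 9.40%, 10.8% and 7.35% in the first 3 of these libraries and 56.6% in the last. The summed level was 27.0 and 32.2 FPKM in WT, 68.1 in labelled KO replicate 1 and 33.3 in replicate 2. Hes6, which is described further on, is not part of this sum and had 18.0 and 17.2 FPKM in WT, with 40.8 and 38.4 in the labelled KO pair.

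Some marker sums varied with these 2 genes. The astrocyte sum given above was highest in labelled KO replicate 1 and lowest in labelled KO replicate 2, as Hey1 was. The 2 WT libraries stood in the other order. Of the single markers, Gfap, Aldoc and S100b had these extremes (Gfap 1871 against 117 FPKM). In contrast, Aldh1l1, Slc1a3, Slc1a2, Aqp4 and Sox9 were highest in a WT library, and Gja1 was lowest in one. The summed FPKM of 10 proliferation genes was 2.49, 15.0, 40.8 and 71.7 in the same order of libraries, and these values ascend as those of Hes1 do. All 10 had an unadjusted limma p under 0.05 in the higher direction, against 4.54% of all genes. The neuron sum also ascended (19.3, 23.3, 29.0 and 29.7 FPKM), though Stmn2 and Map2, its largest terms, did not. The ependymal sum (138, 202, 154 and 31.6 FPKM) was lowest in labelled KO replicate 2, as Hey1 was, but highest in WT replicate 2. The mural list, of which Abcc9 was not in the table and Kcnj8, Vtn and Higd1b were at 0 in at least 1 library, summed to 75.2, 260, 582 and 1405 FPKM, nearly all of it from Acta2 (55.6, 240, 564 and 1395), while the median log2 difference of the list was -0.53. The sum of the 6 neural progenitor markers was 494, 641, 832 and 748 FPKM and did not ascend to the last library. Of these 6, 1 lay above WT in both labelled KO libraries (Nes, ascending at 71.2, 107, 148 and 347 FPKM). Another 1 lay below WT in both (Sox2, at 254, 264, 164 and 138 FPKM). Of all genes, 22.5% lay above and 25.4% below, so these counts do not set the progenitor list apart. The part of these markers in the Hes1 and Hey1 values was not tested.

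The other 2 targets had low counts. Hes5 (ENSMUSG00000048001, chr4:154960923-154962371, + strand), which marks progenitors with active Notch, had normalized counts of 6.40 and 10.1 in WT and 6.42 and 12.6 in the labelled KO pair, from 6, 11, 6 and 14 reads. The groups overlapped, with a log2 difference of 0.15 (SE 0.76, 95% interval -1.75 to 2.05, limma adjusted p = 0.951) that was -0.29 without labelled KO replicate 2 and -0.14 without WT replicate 1. At this depth the interval covers differences in either direction, and how small a difference could have been detected was not tested. A gene on the opposite strand overlaps Hes5.

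Hey2 (ENSMUSG00000019789, chr10:30832359-30842801, - strand) was at 22.4 and 44.1 normalized counts in WT, compared with 47.1 and 25.2 in labelled KO libraries. The 2 labels covered nearly the same range. On the log2 scale they differed by 0.13 (SE 0.68, 95% interval -1.59 to 1.84, limma adjusted p = 0.951), and by -0.35 without WT replicate 1 and -0.31 without labelled KO replicate 1.

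Within a library, Hes1 stood 10.8 and 9.79 times above Hes5 by FPKM in WT, and 23.5 and 41.1 times above it in the libraries labelled KO. Taken from normalized counts, the log2 ratio of Hes5 to Hes1 was -3.82 and -3.75 in WT, against -4.93 and -5.83 under the KO label, a difference of -1.60 that cannot give an exact permutation p below 0.333. The ratio of Hey2 to Hey1 did not separate the labels, with -6.07 and -5.38 in WT, -6.55 and -5.11 in the libraries labelled KO and a mean difference of -0.11 (exact two-sided permutation test, p = 1). It was 0.62 without labelled KO replicate 1 and 0.24 without WT replicate 2.

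The promoters of Hes5 and Hey2 are printed because each holds the core letters bound by RBPJ, TGGGAA, on both strands. A link of these letters to the counts of Rbpj, described further on, was not tested. RefSeq start sites on GRCm38.p6 were matched for 8 of the 10 genes, all but Hes1 and Hey1, and windows of 300 bases (250 before to 50 after the start) were searched on both strands. Of 32851 promoter windows of that length, 25.6% held the core at least once and 3.79% held it 2 times or more. The sequences run 5′ to 3′ on the gene's strand, each ends at the base before the start, and capitals mark the core or its reverse complement.
Hes5, chr4:154960673-154960922, + strand: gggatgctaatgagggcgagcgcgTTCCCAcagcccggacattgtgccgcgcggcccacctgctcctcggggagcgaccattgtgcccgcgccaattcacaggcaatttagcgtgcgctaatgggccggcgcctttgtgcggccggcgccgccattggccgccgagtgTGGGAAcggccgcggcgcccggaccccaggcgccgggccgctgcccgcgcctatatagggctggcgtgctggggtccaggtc
Hey2, chr10:30842784-30843033, - strand: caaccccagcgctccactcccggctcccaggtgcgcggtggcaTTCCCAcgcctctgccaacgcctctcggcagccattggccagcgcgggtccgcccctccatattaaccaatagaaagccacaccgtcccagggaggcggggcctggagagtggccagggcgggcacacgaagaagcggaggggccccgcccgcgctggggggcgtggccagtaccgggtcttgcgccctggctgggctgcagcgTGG

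In Hes5 the 2 matches begin 226 and 82 bases before the start, on opposite strands. In Hey2 they begin 207 and 3 bases before the start, and the second runs past the start, so that only its first letters are shown. The windows of Notch1, Notch2, Notch3, Dll1, Dll3 and Jag1 held no match to TGGGAA. The N box, CACNAG, to which Hes proteins bind, was found on either strand 3 times in the window of Notch1, 2 times in that of Notch3, and 1 time in those of Notch2 and of 1 of the 2 start sites of Dll1. Of all windows, 42.5% held it at least once. Such matches are descriptions of letters and not sites of binding, and both promoters above belong to genes with little transcript in all 4 libraries.

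The rest of the pathway was read from a list of 50 genes, of which 49 were in the table and 48 were tested (Hes3 was below the minimum mean). None passed an adjusted p of 0.05 in limma or edgeR, where 0 of all genes tested did. In DESeq2 1 did (Rbpj), against 6.26% of 17382 genes. At an unadjusted p under 0.05 in limma, 3 of 48 were higher in the libraries labelled KO (Dlk1, Hes6 and Ncstn), against 4.54% of all genes, and 2 were lower (Rbpj and Mfng), against 9.18%. Both labelled KO libraries lay above both WT libraries for 11 genes and below both for 10 (22.5% and 25.4% of all genes), and the median log2 difference was 2.2e-05. Genes on either side of WT were thus about equally many. The number with an unadjusted p under 0.05 depended on which library was left out, and so did the share of all genes.

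**Figure D4:**
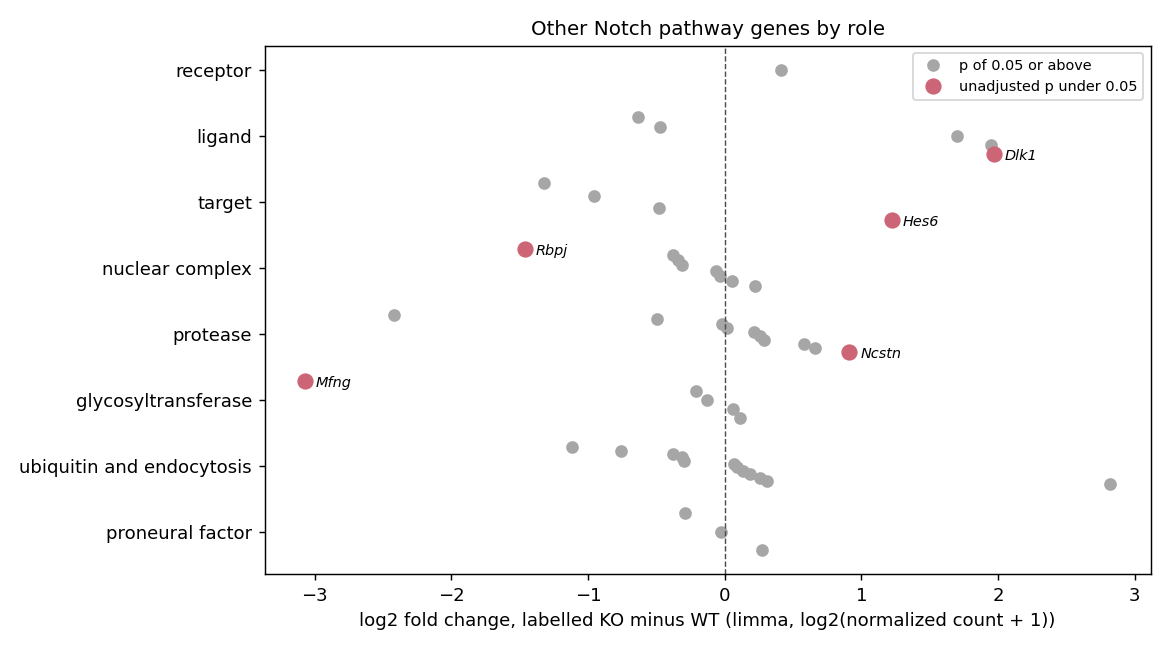
Log2 fold change, labelled KO minus WT (horizontal axis, limma on log2(normalized count + 1)), of the 48 other Notch pathway genes tested, 1 point per gene. Genes are arranged by the role under which each was listed. The 5 genes with an unadjusted p under 0.05 are named, from Mfng at -3.07 to Dlk1 at 1.97, and each role other than the single receptor has points on both sides of 0.

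In the nuclear complex, Rbpj, the DNA-binding partner of the Notch intracellular domain, had normalized counts of 3893 and 2311 in WT, against 1252 and 945 under the KO label. The groups did not overlap, and the log2 difference was -1.46 (SE 0.37, limma adjusted p = 0.234). In DESeq2 its adjusted p was 0.0424, the only one of the list under 0.05, and adjusted p-values of the other alternatives reached 0.967. Without WT replicate 1 its log2 difference was -1.09, with an unadjusted p above 0.05. Rbpj overlaps 2 antisense genes. The highest gene of this role by FPKM was Spen, a corepressor of RBPJ (15.8 FPKM), and the lowest was the coactivator Maml3 (1.44 FPKM), with log2 differences of 0.05 and -0.38.

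Under targets and the factors they repress, the list held Hes6, which counteracts Hes1 and favours neuronal differentiation. Whether Hes6 responds to Notch in these cells was not tested. It was at 652 and 647 normalized counts in WT, with 1637 and 1402 in the labelled KO pair. Here the libraries of each label were close together, and the log2 difference was 1.22 (SE 0.28, limma adjusted p = 0.214), with 1.11 to 1.33 when 1 library was left out. Its unadjusted p was above 0.05 without WT replicate 1 (1.22) or WT replicate 2 (1.21). By FPKM, Hes6 was the highest of the other genes listed as targets (28.6) and Hes3 the lowest (0.023, from 0 to 2 reads). Atoh1, at 0 to 4 reads, was the lowest proneural factor, and Neurog1 was not matched.

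Among the ligands, Dlk1, a Delta-like protein without the domain that activates Notch, was at 158 and 622 normalized counts in WT, against 1177 and 1287 under the KO label. As a ratio, the WT libraries differed from each other more than WT replicate 2 did from either labelled KO library. The log2 difference was 1.97 (SE 0.67, limma adjusted p = 0.316), and it was 0.98 without WT replicate 1. Its unadjusted p stayed under 0.05 only without WT replicate 2 (2.95). Dner, the highest of the other ligands (23.7 FPKM), had normalized counts of 1114 and 605 in WT, 7054 in labelled KO replicate 1 and 1013 in labelled KO replicate 2. Its value in replicate 1 was 6.96 times that in replicate 2, which lay between the 2 WT values.

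In γ-secretase, Ncstn, which encodes the subunit nicastrin, was at 1930 and 2891 normalized counts in WT, with 4711 and 4197 in the labelled KO pair. Both labelled KO values were above WT, and the log2 difference was 0.91 (SE 0.32, limma adjusted p = 0.338). Its unadjusted p was above 0.05 without any 1 of the 4 libraries (0.62 to 1.20). Copa overlaps it on the opposite strand. Psenen, another subunit, was the highest protease gene (46.7 FPKM) with a log2 difference of 0.02. Aph1c was the lowest (1.38 FPKM), with 268 and 195 normalized counts in WT, compared with 119 and 14.4 in labelled KO libraries, and is uncertain because reads can be shared with its near copy Aph1b.

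Of the Fringe glycosyltransferases, which modify Notch and shift its preference between Delta and Jagged ligands, Lfng was the highest (22.3 FPKM) and Mfng the lowest (0.113 FPKM). Lfng had normalized counts of 702 and 1620 in WT, against 1458 and 910 under the KO label, with both labelled KO values between those of WT. Mfng had 5, 22, 0 and 1 reads in the 2 WT and the 2 labelled KO libraries, a fitted log2 difference of -3.07 that depends on the pseudocount (limma adjusted p = 0.284). Its unadjusted p was above 0.05 without WT replicate 2 or labelled KO replicate 1. Its order over the libraries was that of the microglial marker sum, apart from the order within the labelled KO libraries, and the part of microglia in it was not tested. In the ubiquitin and endocytosis group, the ubiquitin ligase Dtx3 was the highest (58.1 FPKM, log2 difference -0.76) and Neurl1a the lowest (0.084 FPKM, log2 difference -0.38).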

How the data were processed

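RNA-seq was measured in 2 WT libraries and 2 libraries labelled Tet1 KO. Paired-end Illumina reads were filtered by the authors before alignment to mm10. The aligner, counter, annotation release and strand setting are not given in the sources used here. The deposited signal, 1 value per gene in each library, is named as FPKM, but 100% of values were whole multiples of 1 read (tolerance 0.01), that is, counts divided by 1 size factor per library (0.934 to 1.11) with no length correction. The deposited gene length, in its own column (a unit of another kind), was used with recovered reads to compute FPKM. Deposited group means and the authors' own fold changes and p-values were not used.

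The test planned for FPKM was run on these values instead, with limma 3.58.1 in R 4.3.3 (lmFit, eBayes using a trend of the variance) on log2(normalized count + 1), a scale that understates changes of low genes. It covered 22094 genes whose mean was 1 or more, without a block, and p-values were adjusted by Benjamini-Hochberg. The quasi-likelihood test of edgeR 4.0.16 with TMM and DESeq2 1.42.0 were run on recovered reads. The replicate numbers come from the labels and did not pair libraries (correlation of same-numbered deviations -0.084). Paralog ratios were tested with exact permutation tests in scipy 1.17.1. Positions were compared with GENCODE M21, in which 25367 of 25393 identifiers were found, 24654 with the same start and end (Notch3 differs). Scripts were tested on simulated data.

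The 10 genes, the pathway list and the marker lists were chosen with earlier results of these data known. All 10 genes were named. Of the pathway list, genes with an unadjusted p under 0.05 and the highest and lowest gene by FPKM in each role were named, and 1 gene that falls under this rule is not reported here. Alternatives were pseudocounts of 0.1 and 5, no filter, a mean minimum of 10, 3 other scalings, no variance trend, the replicate number as a block, each library left out, edgeR and DESeq2. 5hmC sequencing was not analysed here.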

Additional observations from a re-analysis of the deposited data

How the results depend on the processing

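Over the 15 alternatives, 0 of the 10 Notch genes passed an adjusted p of 0.05, and Notch1, Notch2, Dll1, Dll3 and Hes1 kept their direction. The number with an unadjusted p under 0.05, 2 with all libraries, was 1 with a pseudocount of 0.1, a mean minimum of 10 (which left out Hes5), equal sums or no variance trend, and 0 to 4 when 1 library was left out. That of the pathway list, 5, was 8 under quantile normalization, where 13.3% of all genes passed. Both counts depended on which library was left out, and so did the share of all genes. Such fits leave a lone library in 1 label, and their counts are not given. With the replicate number as a block, the counts were 2 and 7, where 11.7% of all genes passed. No call at an adjusted p changed, and same-numbered libraries did not deviate together (correlation -0.084). Leaving out 1 library gave log2 differences of -0.29 to 0.59 for Hes5, -0.93 to 1.39 for Hey1, -0.35 to 0.60 for Hey2, -1.08 to 1.25 for Jag1 and -0.48 to 0.55 for Notch3, which was also -0.016 with equal sums, -0.028 with quantile normalization, -0.086 in edgeR and -0.056 in DESeq2. The ratio of Dll1 to Jag1 ranged from -2.04 to 0.61 and that of Hey2 to Hey1 from -0.83 to 0.62. The cause of these changes was not tested. The median log2 difference of all genes was -0.07, -0.12 with equal sums and 0.07 with quantile normalization. Where 1 library was left out, the lone library of its label was assumed to vary like the other group. Depth limits Hes5 (6 to 14 reads), Dll3 and Hey2.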

Other observations

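The genes whose values over the 4 libraries were most like those of Jag1 were sought among 12868 genes whose mean reached 50 normalized counts, by the root mean square difference of log2 values centred on each gene's own mean. They were Adamts14 (0.049), Ppp1r18 (0.120), Cgref1 (0.156), Gdf15 (0.157) and Layn (0.160). Of the other 9 Notch genes, the nearest to Jag1 was Hes5 (0.530), followed by Hes1 (0.861), and the farthest was Hey1 (1.65). The genes most like Hes5 were Trib1 (0.029), Dysf (0.048), Akap13 (0.057), Ftl1 (0.059) and Qrsl1 (0.062), but the profile of Hes5 itself rests on 6 to 14 reads. With 4 libraries, such likeness is a description of these libraries and was not tested.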
